A study of Mus musculus with 58 samples.

Results

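Heat shock chaperones are proteins that hold, fold and refold other proteins, and this account follows the mRNA of 10 of them in mouse microglia, the resident macrophages of the brain. The members were chosen by name, with earlier results of these data known: Hspa1a, Hspa1b, Hspa8, Hspa5, Hsp90aa1, Hsp90ab1, Hsp90b1, Hsph1, Dnajb1 and Bag3. All 10 symbols matched 1 Ensembl gene each among the 47643 genes of the count tables.

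The study asked how tau, the protein that aggregates in Alzheimer's disease, and the kinase IKKβ (gene Ikbkb), which switches on NF-κB, change microglia. It holds 34 microglia libraries in 8 groups and 4 comparisons. In the tau experiment, wild-type primary microglia from newborn pups received 2 µg per ml of full-length tau fibrils (tau, n = 4) or vehicle (n = 4) for 24 h. PS19 mice carry human P301S tau as a transgene, and their microglia (n = 4) and those of non-transgenic mice (NTG, n = 4) were taken from adult brain with CD11b beads after enzymatic digestion. All 4 PS19 mice and NTG replicates 3 and 4 were 10.98 months old, and NTG replicates 1 and 2 were 11.18 months old. The other libraries came from cultured microglia of pups. IkbkbCA microglia (Cx3cr1CreERT2/+; IkbkbCA F/F, n = 5) express a constitutively active IKKβ once Cre has removed a stop cassette, and IkbkbWT microglia (Cx3cr1+/+; IkbkbCA F/F, n = 5) lack the Cre. Ikbkb-/- microglia (Cx3cr1CreERT2/+; Ikbkb F/F, n = 4) lose IKKβ, and Ikbkb+/+ microglia (Cx3cr1+/+; Ikbkb F/F, n = 4) keep it. All 4 of these groups received 4-hydroxytamoxifen, which activates the CreERT2 recombinase. Both mutant groups therefore carry the Cre and 1 disrupted Cx3cr1 allele and both control groups carry neither, so that the effect of IKKβ and that of the Cre allele cannot be told apart in these libraries.

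HSP70 proteins bind stretches of unfolded protein and release them in a cycle driven by ATP. J-domain proteins bring clients to HSP70 and start ATP hydrolysis, and exchange factors free the nucleotide so that the cycle can run again. HSP90 proteins act later, on clients that are nearly folded, among them many kinases. The cytosol, the endoplasmic reticulum (ER) and mitochondria each have their own HSP70 and HSP90. The cytosolic inducible forms are transcribed by heat shock factor 1 (HSF1) when unfolded protein builds up, and the ER forms belong to the unfolded protein response. Microglia take up and degrade protein aggregates, and the inducible HSP70 genes are also known to respond when brain cells are dissociated.

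By role, Hspa1a and Hspa1b encode the inducible cytosolic HSP70, Hspa8 the constitutive HSC70 and Hspa5 the ER form BiP. Hsp90aa1 and Hsp90ab1 encode the inducible and the constitutive cytosolic HSP90, and Hsp90b1 the ER form GRP94. Dnajb1 is a J-domain partner of HSP70, and Hsph1 (HSP105) and Bag3 are exchange factors, of which Bag3 also steers clients to autophagy. On GRCm38, Hspa1a (chr17:34969190-34972156) and Hspa1b (chr17:34956436-34959238) are neighbours on the minus strand. Hspa5 lies at chr2:34771970-34777547 on the plus strand and Hsp90b1 at chr10:86690209-86705509 on the minus strand. Hspa8 lies at chr9:40800984-40810087, Hsp90aa1 at chr12:110690605-110702728 and Hsp90ab1 at chr17:45567775-45573271. Dnajb1 lies at chr8:83608193-83612653, Hsph1 at chr5:149614287-149636376 and Bag3 at chr7:128523616-128546981.

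The results turned on 2 pairs of members, the inducible HSP70 genes and the ER genes, and their promoters are shown because the pairs carry different response elements. RefSeq promoters (GRCm38.p6) were on hand for 7 of the 10 members. Hspa8, Hsp90aa1 and Hsp90ab1 had no entry. The 250 bases before the start site were searched on both strands for a pair of heat shock units (GAANNTTC or TTCNNGAA, the letters HSF1 is known to bind) and for the ER stress element (CCAAT, 9 bases, CCACG). Capitals mark the fixed letters of each match.
Hspa1a, chr17:34972157-34972406, minus strand: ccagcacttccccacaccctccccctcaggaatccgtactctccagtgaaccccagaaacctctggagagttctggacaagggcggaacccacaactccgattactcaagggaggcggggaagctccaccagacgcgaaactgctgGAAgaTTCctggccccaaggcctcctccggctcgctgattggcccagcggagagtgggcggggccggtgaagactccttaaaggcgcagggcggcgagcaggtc
Hspa1b, chr17:34959239-34959488, minus strand: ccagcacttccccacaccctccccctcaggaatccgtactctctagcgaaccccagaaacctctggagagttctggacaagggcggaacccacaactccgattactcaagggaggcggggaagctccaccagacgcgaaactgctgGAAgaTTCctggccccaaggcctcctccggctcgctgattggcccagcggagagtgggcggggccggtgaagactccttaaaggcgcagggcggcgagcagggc
Hspa5, chr2:34771840-34772089, plus strand: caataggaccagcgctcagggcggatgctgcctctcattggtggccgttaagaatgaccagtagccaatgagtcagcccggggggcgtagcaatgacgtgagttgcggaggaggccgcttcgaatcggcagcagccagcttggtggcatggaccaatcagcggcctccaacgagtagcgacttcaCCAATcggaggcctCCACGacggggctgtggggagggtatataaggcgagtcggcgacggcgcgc
Hsp90b1, chr10:86705445-86705694, minus strand: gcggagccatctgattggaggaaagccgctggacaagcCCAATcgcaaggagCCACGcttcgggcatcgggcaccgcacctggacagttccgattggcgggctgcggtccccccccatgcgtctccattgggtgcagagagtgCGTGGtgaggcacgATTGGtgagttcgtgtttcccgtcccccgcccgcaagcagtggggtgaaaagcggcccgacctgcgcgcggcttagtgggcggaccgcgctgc
The Hspa1a and Hspa1b promoters were identical at 247 of the 250 bases, and each held 1 pair of heat shock units, from -104 to -97 counted from the start site. Hsph1 held such a pair too (TTCNNGAA) before each of its listed start sites, so that 3 of the 7 members had one, against 12.8% of the 32851 promoters in the table. The ER stress element was in the Hspa5 promoter once, from -65 to -47, and in that of Hsp90b1 at 2 places on opposite strands, from -212 to -194 and from -107 to -89. It was in 0.113% of all promoters (37 of 32851) and in none of the other 5 members searched. A match is a description of these letters and no measure of binding.

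Levels are given as CPM, counts scaled to a library of 1000000 counts, after TMM normalisation within each experiment. The libraries count 1 tag near the 3′ end of each transcript, so that CPM does not grow with transcript length. No microglia marker of 11 was at 0 throughout any group, and their summed level was 31088 to 44795 CPM in the adult libraries and 5325 to 24818 CPM in the cultures. The 34 libraries held 1672052 to 8349128 counts on genes, a median of 4720571. The deposited tables set reads with several alignments apart from the genes. Of the 50-base words in the last 500 bases of the Hspa8 transcript, 81.8% also occurred in transcripts of other genes, mostly the pseudogene Gm15459, so that Hspa8 counts depend on how such reads were treated. That share was 7.76% for Hsp90ab1, 4.21% for Hsp90b1, and 0 for the other 7 members, Hspa1a and Hspa1b included. Hspa1a also lies across an antisense gene, Gm20481.

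**Figure D1:**
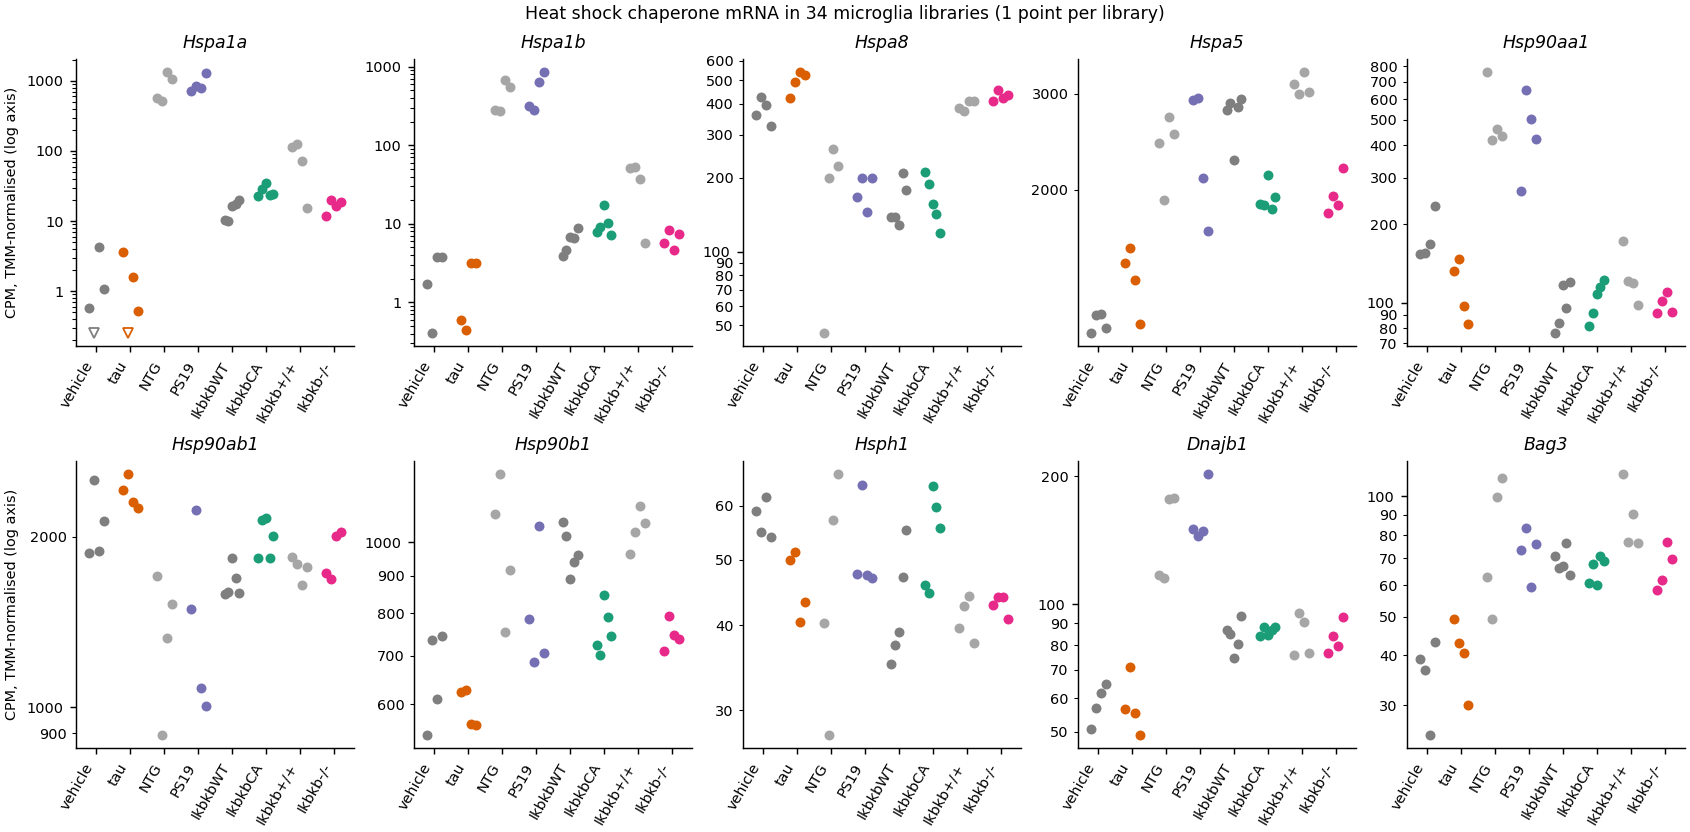
Level of each of the 10 members in the 34 microglia libraries, in CPM on a log axis, with 1 point per library and the 8 groups side by side, each control left of its own test group. Open triangles stand for 2 libraries with 0 counts of Hspa1a. Hspa1a and Hspa1b lie highest in the 8 adult libraries (NTG and PS19) and lowest in the 8 libraries of the tau experiment.

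The members did not share 1 level or 1 pattern. Hspa5, Hsp90ab1 and Hsp90b1 were the most abundant in most groups, at 1091 to 3286 CPM, 894 to 2584 CPM and 545 to 1241 CPM over the 34 libraries. Hsph1, at 27.6 to 66.9 CPM, and Bag3, at 25.3 to 114 CPM, were low throughout. Hspa1a and Hspa1b ran over the widest range. In the 8 adult libraries Hspa1a had 522 to 1333 CPM with a median of 815, and in the 26 culture libraries 0 to 126 CPM with a median of 16.4. Hspa1b had 271 to 855 CPM in the adult libraries and 0.402 to 52.9 CPM in the cultures. All 8 adult libraries lay above every culture for Hspa1a, Hspa1b, Hsp90aa1 (267 to 761 against 76.4 to 235 CPM) and Dnajb1 (115 to 203 against 49.1 to 95.2 CPM). The share of all genes that part adult libraries from cultures in this way was not counted, so that this describes the members only. Hspa8 and Hsp90ab1 had the lower median in adult libraries, 199 CPM against 381 CPM and 1408 CPM against 1856 CPM in cultures. Both overlapped between adult libraries and cultures, as did Hspa5, Hsp90b1, Hsph1 and Bag3. Immediate early genes, which respond fast to handling of cells, were also far higher in the adult libraries: their 16 genes summed to 5888 to 16170 CPM there and to 974 to 4638 CPM in the cultures. Age, isolation and experiment set the adult and culture libraries apart together, so that their parts cannot be told apart and no test was run. Scaling all 34 libraries together changed these levels by a factor of 0.923 to 1.15.

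Among the cultures, Hspa8 split by experiment. It had 119 to 212 CPM in the 10 IkbkbWT and IkbkbCA libraries, 376 to 454 CPM in the 8 Ikbkb+/+ and Ikbkb-/- libraries, and 326 to 539 CPM in the tau experiment. The first 2 of these ranges do not overlap, although both come from cultures of pup microglia given 4-hydroxytamoxifen. The part of the pseudogenes in this split was not tested. Hspa1b followed Hspa1a in its level. Where Hspa1a had at least 10 counts, the ratio of Hspa1b to Hspa1a was 0.286 to 0.521 in 18 culture libraries and 0.34 to 0.807 in the 8 adult ones.

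With tau fibrils Hspa8 was higher and Hsp90aa1 lower, and the inducible HSP70 genes were at the limit of detection with and without tau. Hspa8 had 422, 492, 539 and 524 CPM with tau and 359, 427, 395 and 326 CPM with vehicle. Only tau replicate 1 fell within the vehicle range. The log2 fold change was 0.39 ± 0.13 (SE; n = 4 and 4; edgeR quasi-likelihood test, FDR = 0.0215). Hsp90aa1 had 132, 147, 97.5 and 82.9 CPM with tau and 153, 155, 168 and 235 CPM with vehicle, and the groups did not overlap. It fell by 0.63 ± 0.17 on the log2 scale (edgeR, FDR = 0.0052), and an exact two-sided permutation test of its log2 CPM gave p = 0.0286, the smallest that 4 against 4 libraries can give.

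Hspa1a had 3.57, 0, 1.57 and 0.528 CPM with tau and 0.577, 0, 4.21 and 1.08 CPM with vehicle, and Hspa1b stayed under 4 CPM in all 8 libraries. The 0 counts in tau replicate 2 and vehicle replicate 2 allow up to 1.29 and 0.646 CPM. These 2 genes did not pass the filter on low counts and were not tested. The other 6 members were not called. Hspa5 had 1467, 1563, 1367 and 1134 CPM against 1091, 1180, 1182 and 1117 CPM, a log2 fold change of 0.28 ± 0.13 (edgeR, FDR = 0.103). Hsph1 had 50, 51.4, 40.5 and 43.3 CPM against 58.9, 54.9, 61.8 and 54 CPM, which do not overlap, with a log2 fold change of -0.31 ± 0.16 (edgeR, FDR = 0.155). For Hsp90ab1, Hsp90b1, Dnajb1 and Bag3 the log2 fold changes lay between -0.15 and 0.18 (edgeR, FDR = 0.306 to 0.976).

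Of the 8 members tested with tau, 1 was called higher and 1 lower, where 14.5% of the 10408 genes tested were called higher and 15.4% lower, and their median log2 fold change was 0.08 against -0.01 over all genes tested. Calls on the members with tau were thus no more frequent than among all genes. The Hspa8 call was lost on leaving out tau replicate 3 (log2 fold change 0.35, FDR = 0.0709), vehicle replicate 1 (0.37, FDR = 0.052) or vehicle replicate 4 (0.33, FDR = 0.0602), and on scaling by total counts (0.24, FDR = 0.169), all by edgeR. The Hsp90aa1 call held without each of the 8 libraries.

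The other chaperone genes gave a mixed picture with tau, where 14.5% of all genes tested were called higher and 15.4% lower. All 3 small heat shock proteins tested, which hold unfolded proteins without ATP, fell: Hspb6 by 1.15 ± 0.27, Cryab by 0.94 ± 0.13 and Hspb8 by 0.48 ± 0.17 on the log2 scale (edgeR, FDR = 0.00211, 3.93e-06 and 0.0356). Hsf1 itself rose by 0.94 ± 0.33 (edgeR, FDR = 0.0345), from 4.32 to 6.92 CPM with vehicle to 8.04 to 16.4 CPM with tau. Of 16 tested HSF1 targets outside the members, 2 rose and 3 fell, with Ubb (polyubiquitin) at 0.82 ± 0.16, Ier5 at 0.72 ± 0.13, Cryab as above and Serpinh1, a collagen chaperone of the ER, at -1.25 ± 0.22. Among 26 genes of the ER and the unfolded protein response 5 rose and 1 fell. Ddit3, the stress transcription factor CHOP, rose by 1.41 ± 0.15 (edgeR, FDR = 2.35e-08), Herpud1 by 0.98 ± 0.19 and Pdia3 by 0.42 ± 0.14, and Dnajb9 fell by 0.62 ± 0.21. Of 19 J-domain genes 1 rose and 1 fell, of 8 exchange factors 1 rose, and of 6 other HSP70 and HSP110 genes 1 fell. Dnajb6 (0.68 ± 0.19) and Bag1 (0.51 ± 0.13) rose, as did the HSP90 co-chaperones Fkbp8 (0.48 ± 0.15) and Cdc37 (0.44 ± 0.14), and Cdc37l1 (-0.62 ± 0.15) and Hspa4l (-0.59 ± 0.19) fell. Of 15 immediate early genes 3 rose and 3 fell, with Fos at 1.30 ± 0.16 and Klf4 at -1.17 ± 0.32.

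Cell type markers and read quality moved with the tau groups. The summed level of 11 microglia markers was 12637 to 14439 CPM with tau and 5325 to 6802 CPM with vehicle, with 7 markers called higher and none lower. The 8 neuron markers summed to 199 to 253 against 379 to 462 CPM (5 of 8 tested lower), the 8 astrocyte markers to 403 to 520 against 725 to 813 CPM (5 of 8 lower), and the 8 oligodendrocyte markers to 378 to 438 against 615 to 728 CPM (4 of 7 lower, 1 higher). In bulk libraries fewer cells of a type and less RNA per cell cannot be told apart. The share of uniquely aligned reads outside genes was 16.3 to 22.2% with tau and 23.3 to 29.1% with vehicle. With that share as a covariate Hspa8 had a log2 fold change of 0.41 (edgeR, FDR = 0.29) and Hsp90aa1 of -0.70 (edgeR, FDR = 0.119), neither of them called. The share did not overlap between the groups, so that this fit cannot part it from tau. Ddx3y, a gene only males carry, was higher with tau by 0.45 ± 0.16 (edgeR, FDR = 0.0305). Xist, which marks the inactive X chromosome of females, was not called (FDR = 0.898 by edgeR). The part of sex and of the other cell types in the changes was not tested.

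PS19 microglia did not differ detectably from NTG microglia in any member. None of the 10 was called, where 0.0707% of the 11323 genes tested were called in either direction (8 genes by edgeR, with 977 at an unadjusted p under 0.05). DESeq2 and limma-voom also called none of the 10. Hspa1a had 714, 834, 796 and 1310 CPM in PS19 and 567, 522, 1333 and 1067 CPM in NTG, and Hspa1b 321, 284, 642 and 855 against 278, 271, 672 and 552 CPM. The groups overlapped for both. Within NTG, replicates 1 and 2, of 11.18 months, had the lower values of both genes and of the summed immediate early genes (5888 and 10627 against 14801 and 16170 CPM). Within PS19, where all mice were of 1 age, replicates 1 and 2 also had less Hspa1b than replicates 3 and 4. The log2 fold change was 0.07 for Hspa1a, with an interval of -0.54 to 0.67, and 0.25 for Hspa1b, with an interval of -0.50 to 1.00 (95%).

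The other 8 members had log2 fold changes of -0.31 (Hsp90b1) to 0.14 (Dnajb1) between PS19 and NTG (edgeR, FDR = 0.713 to 0.997). The interval was narrowest for Hsp90b1 and Dnajb1, at -0.73 to 0.11 and -0.27 to 0.56, and changes inside these intervals could not be shown with 4 mice a group. Hspa8 had 167, 199, 145 and 200 CPM in PS19 and 46.4, 199, 263 and 223 CPM in NTG, of which NTG replicate 1 lay far under the rest. Hsp90aa1 was highest in that same library, at 761 CPM where the other 3 NTG libraries had 419 to 461 CPM. With age as a covariate no member was called either. All 8 mice are labelled male, and Ddx3y had 91.8 to 205 CPM in every library. Xist had 161 CPM in PS19 replicate 1 and 1.66 to 29 CPM in the other 7 libraries, and without that library no member was called. None of the genes of the other chaperone, stress and cell type lists was called in PS19, and the immediate early genes stayed high in both groups, with Fos at 465 to 977 CPM in PS19 and 414 to 974 CPM in NTG.

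**Figure D2:**
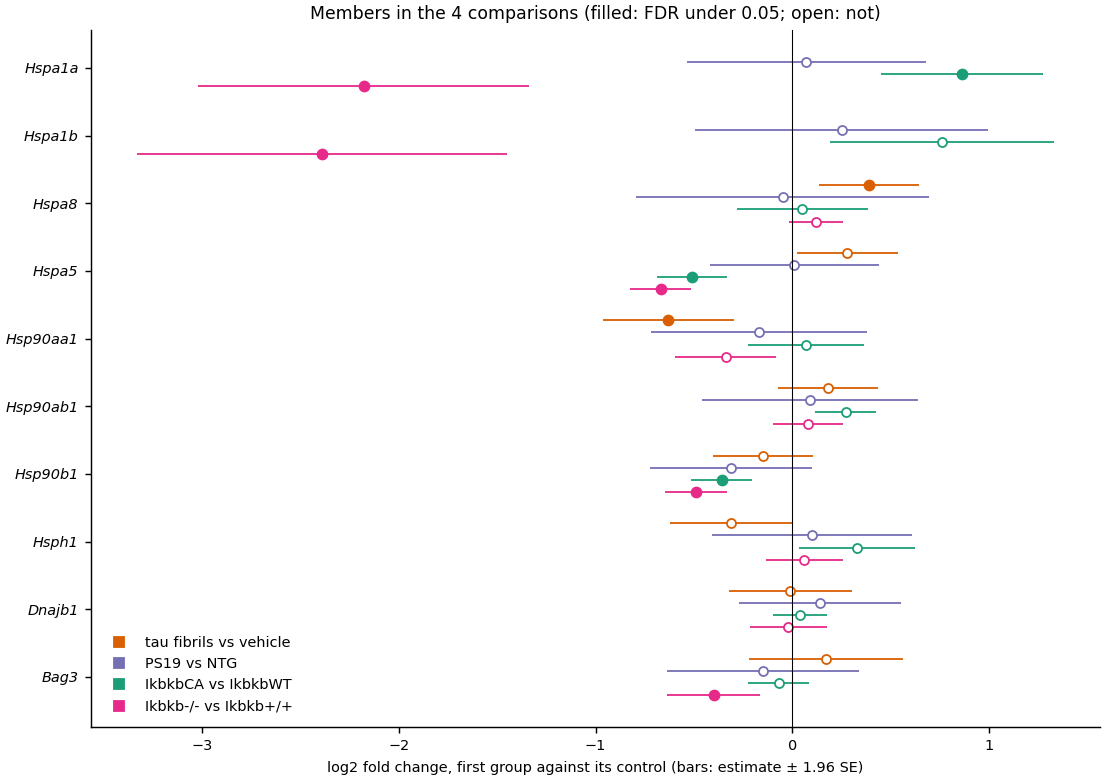
Log2 fold change of each member in the 4 comparisons, first group against its own control, with bars of the 95% interval from the edgeR fits. Filled points have an FDR under 0.05 and open points do not. Hspa5 and Hsp90b1 lie below 0 in both Ikbkb comparisons, Hspa1a and Hspa1b lie on opposite sides of 0 in them, and all PS19 points are open. Hspa1a and Hspa1b have no point for tau because they were not tested there.

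The genotype checks preceded the Ikbkb comparisons. Ikbkb itself had 18.7 to 25.4 CPM in Ikbkb-/- and 45.6 to 54.6 CPM in Ikbkb+/+, a fall of 1.20 ± 0.12 on the log2 scale (edgeR, FDR = 6.34e-07). It had 44.8 to 59.6 CPM in IkbkbCA and 41 to 58.3 CPM in IkbkbWT. The log2 fold change of 0.17 ± 0.12 was not called (edgeR, FDR = 0.405), so that Ikbkb counts show no rise in IkbkbCA. The counts do not separate the IkbkbCA transgene from the native gene. The study reports higher Ikbkb mRNA in cultured IkbkbCA microglia by quantitative PCR. Cx3cr1, of which both mutant groups lack 1 intact allele, fell by 0.56 ± 0.09 in IkbkbCA and by 1.16 ± 0.12 in Ikbkb-/- (edgeR, FDR = 0.00153 and 1.63e-06).

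In IkbkbCA microglia Hspa1a was higher and the ER pair lower than in IkbkbWT. Hspa1a had 22.8, 28.7, 35.3, 23.5 and 24.7 CPM in IkbkbCA and 10.4, 10.1, 16.5, 17.3 and 19.8 CPM in IkbkbWT, and every IkbkbCA library lay above every IkbkbWT library. It rose by 0.86 ± 0.21 (SE, log2 scale; n = 5 and 5; edgeR, FDR = 0.0153). In the fit of all 18 libraries of both Ikbkb experiments this call was lost (0.87 ± 0.37, FDR = 0.121 by edgeR). Hspa1b had 7.78, 9.17, 17.6, 10.3 and 7.23 CPM against 3.89, 4.66, 6.71, 6.59 and 8.73 CPM. Its groups overlapped and its log2 fold change of 0.76 ± 0.29 was not called (edgeR, FDR = 0.105).

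Hspa5 had 1880, 1874, 2125, 1845 and 1943 CPM in IkbkbCA and 2806, 2890, 2272, 2831 and 2940 CPM in IkbkbWT, and it fell by 0.51 ± 0.09 (edgeR, FDR = 0.00257). Hsp90b1 had 724, 702, 846, 790 and 745 CPM against 1067, 1019, 890, 939 and 962 CPM, and it fell by 0.36 ± 0.08 (edgeR, FDR = 0.0111). For both ER genes all IkbkbCA libraries lay under all IkbkbWT libraries, and the exact two-sided permutation test gave p = 0.00794, the smallest that 5 against 5 libraries can give, as it did for Hspa1a. Hsp90ab1 missed the threshold, with 1836, 2141, 2163, 1833 and 2003 CPM against 1584, 1600, 1838, 1689 and 1590 CPM and a log2 fold change of 0.27 ± 0.08 (edgeR, FDR = 0.0519). In the fit of 18 libraries it was called (0.28, FDR = 0.0167), as was Hsph1 (0.35, FDR = 0.0468, both by edgeR). In the comparison's own fit the other 5 members had log2 fold changes of -0.07 (Bag3) to 0.33 (Hsph1), with an FDR of 0.163 or more by edgeR. Dnajb1 was the steadiest, at 84.1 to 88.3 CPM in IkbkbCA and 74.5 to 93.5 CPM in IkbkbWT.

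Thus 1 of 10 members was called higher and 2 lower in IkbkbCA, where 7.31% of the 11697 genes tested were called higher and 7.16% lower. The median log2 fold change was 0.06 over the members and -0.05 over all genes tested. The libraries of this experiment fell into near pairs: replicates 1 and 2 and replicates 4 and 5 of each group differed by a chi-square per degree of freedom of 3.08 to 4.89. Whether they came from separate cultures is not given, so that the p-values measure the spread between libraries. With these 4 pairs summed, which leaves 3 against 3, no member was called (edgeR, FDR = 0.145 for Hspa1a at 0.90, 0.195 for Hspa5 at -0.44 and 0.295 for Hsp90b1 at -0.31). The other culture groups held pairs as close. Replicates 1 and 2 differed by 1.93 in Ikbkb-/-, 2.18 in tau and 3.15 in Ikbkb+/+, and vehicle replicates 1 and 3 by 3.01. Those pairs were not summed, and whether they came from separate cultures is not given either. IkbkbWT replicate 3, the lowest IkbkbWT library for Hspa5 and Hsp90b1, also stood apart in its oligodendrocyte markers, which summed to 5120 CPM against 451 to 1918 CPM in the other 9 libraries, and in its astrocyte markers, at 824 against 52.1 to 298 CPM. Neuron markers summed to 317 to 345 CPM in replicates 4 and 5 of both groups and to 34.7 to 109 CPM in the other 6 libraries. Without it Hspa5 fell by 0.56 and Hsp90b1 by 0.38 on the log2 scale, and both were called. The share of reads outside genes did not overlap between the groups (12.4 to 14% in IkbkbCA, 15.9 to 18.7% in IkbkbWT), and with it as a covariate no member was called. That fit gave 0.88 ± 0.54 for Hspa1a, -0.30 ± 0.23 for Hspa5 and -0.24 ± 0.22 for Hsp90b1. It cannot part the share from genotype, because the share did not overlap. Markers of other cell types moved as well, and here too fewer cells of a type and less RNA per cell cannot be told apart. Border macrophage and granulocyte markers summed to 490 to 1087 CPM in IkbkbCA and 1321 to 1724 CPM in IkbkbWT, with 2 of the 5 tested called lower and 1 higher, and microglia markers to 15614 to 24818 against 12964 to 17335 CPM, with 4 of 11 higher and 1 lower. Their part in the chaperone values was not tested.

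In Ikbkb-/- microglia Hspa5 and Hsp90b1 were lower and Hspa1a and Hspa1b far lower than in Ikbkb+/+, the last pair through 3 of the 4 control libraries. Hspa5 had 1813, 1951, 1874 and 2192 CPM in Ikbkb-/- and 3124, 2997, 3286 and 3017 CPM in Ikbkb+/+. It fell by 0.67 ± 0.08 (SE, log2 scale; n = 4 and 4; edgeR, FDR = 1.57e-05). Hsp90b1 had 709, 793, 747 and 737 CPM against 965, 1034, 1122 and 1062 CPM, and it fell by 0.49 ± 0.08 (edgeR, FDR = 0.000206). Neither gene's groups overlapped, and the exact permutation test gave the smallest p it can, 0.0286, for both.

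Hspa1a had 114, 126, 70.9 and 15.2 CPM in Ikbkb+/+ and 11.9, 19.9, 16.4 and 18.7 CPM in Ikbkb-/-. Hspa1b had 51, 52.9, 36.9 and 5.78 CPM against 5.65, 8.39, 4.68 and 7.33 CPM. Replicates 1, 2 and 3 of Ikbkb+/+ lay above all 4 Ikbkb-/- libraries for both genes, and replicate 4 lay among them. Hspa1a fell by 2.18 ± 0.43 and Hspa1b fell by 2.39 ± 0.48 on the log2 scale (edgeR, FDR = 0.00171 and 0.00202). The exact two-sided permutation test on log2 CPM, which does not assume a spread, gave p = 0.114 for Hspa1a and p = 0.0857 for Hspa1b, and limma-voom did not call them either (log2 fold change -1.70, FDR = 0.0808, and -1.80, FDR = 0.15). The Ikbkb+/+ libraries spread over an 8.24-fold range in Hspa1a, an SD of 1.39 on the log2 scale, where the median SD of the genes tested was 0.18 and 99.8% of them had a smaller one. In the Ikbkb-/- libraries the SD of Hspa1a was 0.32. Without replicate 4 of Ikbkb+/+ the log2 fold changes were -2.56 and -2.79, and both calls held without any 1 of the 8 libraries.

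Bag3 had 58.2, 61.7, 76.9 and 69.8 CPM in Ikbkb-/- and 114, 77, 90.4 and 76.4 CPM in Ikbkb+/+, with only the third Ikbkb-/- library inside the control range. It fell by 0.40 ± 0.12 (edgeR, FDR = 0.0398), a call lost without any 1 of 5 of the 8 libraries (FDR = 0.0657 to 0.115). Those were Ikbkb+/+ replicates 1 and 3 and Ikbkb-/- replicates 1, 2 and 4. Hspa8 had 413, 454, 422 and 436 CPM against 386, 376, 413 and 411 CPM, with a log2 fold change of 0.12 ± 0.07 (edgeR, FDR = 0.32). Hsp90aa1 had 91.5, 102, 110 and 92 CPM against 172, 121, 119 and 98.5 CPM, with a log2 fold change of -0.34 ± 0.13 (edgeR, FDR = 0.0941). Hsp90ab1, Hsph1 and Dnajb1 had log2 fold changes of -0.02 to 0.08 (edgeR, FDR of 0.617 or more).

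So 5 of 10 members were called lower and 0 higher in Ikbkb-/-, where 6.96% of the 11242 genes tested were called lower and 7.64% higher. The median log2 fold change was -0.37 over the members and 0 over all genes tested. The sex genes also moved with genotype in this experiment. Ddx3y, which only males carry, had 34.7 to 70.2 CPM in Ikbkb+/+ and 155 to 178 CPM in Ikbkb-/-, and Xist, which marks the inactive X chromosome of females, 246 to 396 and 5.66 to 10.7 CPM. The Ikbkb+/+ libraries thus hold RNA of both sexes and the Ikbkb-/- libraries mostly that of males, so that sex and genotype cannot be told apart there. A fit with Ddx3y as a covariate cannot part them, because Ddx3y did not overlap between the groups. In that fit Hspa1a and Hspa1b were called, at -5.34 and -5.36, where the main fit gave -2.18 and -2.39. Hspa5 (-0.57, FDR = 0.235), Hsp90b1 (-0.26, FDR = 0.639) and Bag3 (-0.78, FDR = 0.293) were not called in it (edgeR). Hsp90aa1 was called with this covariate (-1.26, FDR = 0.0248 by edgeR). In the IkbkbWT group, where replicates 1 to 3 had 145 to 172 CPM of Ddx3y and replicates 4 and 5 had 1.15 to 2.07 CPM, Hspa5 had 2806, 2890 and 2272 CPM in the former and 2831 and 2940 CPM in the latter. Hspa1a had 10.4, 10.1 and 16.5 CPM against 17.3 and 19.8 CPM in the same libraries. Xist had 1.72 to 2.75 CPM in replicates 1 to 3 and 471 to 492 CPM in replicates 4 and 5. All IkbkbCA libraries held RNA of both sexes, with 48.7 to 85.4 CPM of Ddx3y and 149 to 276 CPM of Xist. Between IkbkbCA and IkbkbWT neither gene was called (edgeR, FDR = 0.742 and 0.944). With Ddx3y as a covariate there Hspa1a (1.0, FDR = 0.00327), Hspa5 (-0.49, FDR = 0.00554) and Hsp90b1 (-0.37, FDR = 0.0159) stayed called. Hsph1 was called too (0.43, FDR = 0.045, all by edgeR). Cell markers moved too: those of border macrophages and granulocytes summed to 421 to 728 CPM in Ikbkb-/- and 1560 to 1798 CPM in Ikbkb+/+ (all 5 tested lower), and those of oligodendrocytes to 772 to 859 against 454 to 575 CPM (5 of 8 higher). Endothelial and fibroblast markers summed to 164 to 215 against 64.1 to 115 CPM, with Flt1 at 1.16 and Pecam1 at -2.01 on the log2 scale, the 2 that were tested. Of the 11 microglia markers 3 fell, with P2ry12 (-1.21) and Cx3cr1 (-1.16) in the lead, and 2 rose, Aif1 (0.71) and C1qa (0.37). Of the 6 astrocyte markers tested, Slc1a3 (-2.19) fell and S100b (0.67) rose. Their part in the 5 calls was not tested.

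**Figure D3:**
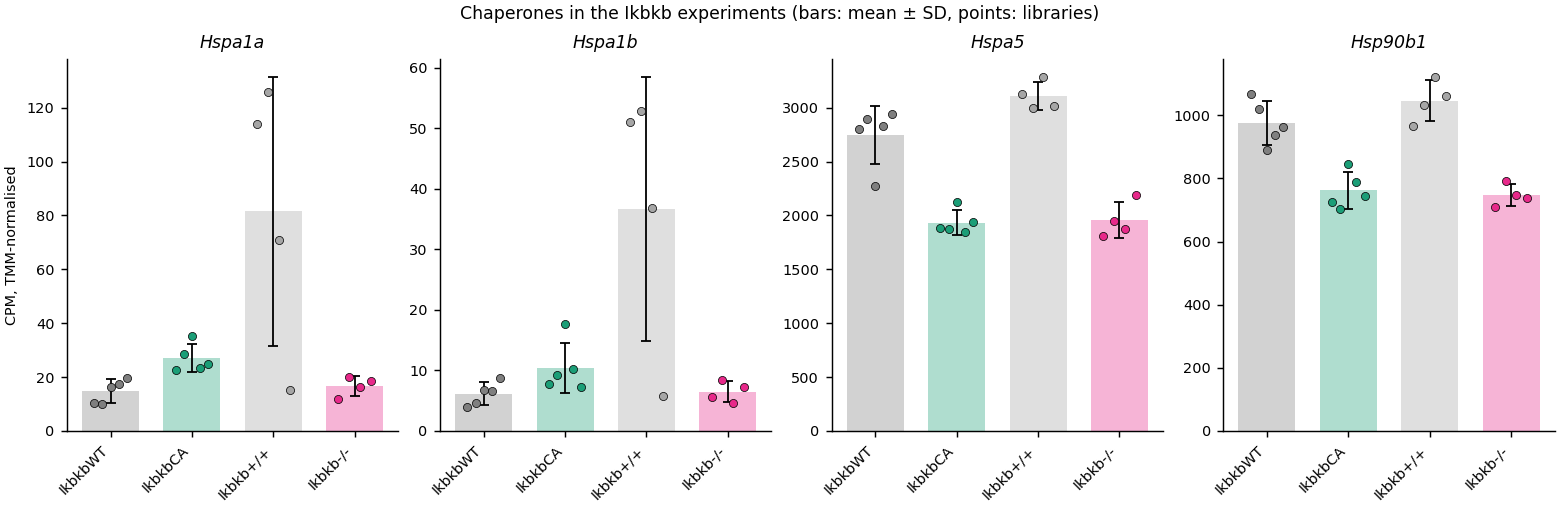
CPM of Hspa1a, Hspa1b, Hspa5 and Hsp90b1 in the 4 groups of the Ikbkb experiments, with bars for the mean, error bars of 1 SD and 1 point per library. Hspa5 and Hsp90b1 are lower in both mutants than in their controls without overlap. In Ikbkb+/+ 3 libraries of Hspa1a lie at 70.9 to 126 CPM and the fourth at 15.2 CPM.

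The IkbkbCA effect and the Ikbkb-/- effect were then set against each other in 1 fit of the 18 libraries. They differed for Hspa1a, by 3.10 ± 0.56 on the log2 scale (IkbkbCA effect minus Ikbkb-/- effect; edgeR, FDR = 0.00334), and for Hspa1b, by 3.22 ± 0.64 (edgeR, FDR = 0.00686). These 2 of the 10 members compare with 3.12% of the 12352 genes tested that were called in either direction. Hspa1a had 11.9 to 19.9 CPM in Ikbkb-/- and 10.1 to 19.8 CPM in IkbkbWT, and Hspa1b 4.68 to 8.39 and 3.89 to 8.73 CPM. The high values were those of Ikbkb+/+ replicates 1, 2 and 3, while replicate 4 had 15.2 CPM of Hspa1a and 5.78 CPM of Hspa1b. For the ER pair no difference was shown: 0.18 for Hspa5, with an interval of -0.06 to 0.41, and 0.15 for Hsp90b1, with an interval of -0.07 to 0.36 (edgeR, FDR = 0.524 and 0.567). So Hspa5 and Hsp90b1 were lower in both mutants, which by design change IKKβ activity in opposite directions. Both mutants also carry the Cre and 1 disrupted Cx3cr1 allele, whose effect cannot be told apart from that of IKKβ here. The share of all genes called lower in both was not counted. The Hspa1a and Hspa1b calls of this contrast were lost under limma-voom (2.59, FDR = 0.0936, and 2.54, FDR = 0.256). They held without each of the 18 libraries and with the close pairs of the IkbkbCA experiment summed. That sum left the Ikbkb+/+ and Ikbkb-/- libraries separate, so that it cannot speak to close pairs among them. The remaining 6 members had differences of -0.06 (Hspa8) to 0.44 (Hsp90aa1), none called (edgeR, FDR = 0.281 to 0.943). The contrast spans 2 experiments, each with its own controls.

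The ER members fell together with other ER genes in Ikbkb-/-. Of 26 other ER and unfolded protein response genes tested there, 14 were called lower and 1 higher. Of all 11242 genes tested, 6.96% were called lower and 7.64% higher. The median log2 fold change was -0.29 over the list and 0 over all genes tested. The list was chosen with earlier results of these data known, so that its counts are a description. Manf, a secreted factor induced by ER stress, fell by 0.96 ± 0.11, Herpud1, which serves ER-associated degradation, by 0.89 ± 0.09, and Creld2, an ER stress gene, by 0.72 ± 0.17 (edgeR, FDR = 4.74e-06, 6.87e-07 and 0.00596). The exception was Ddit3, which rose by 1.24 ± 0.11 (edgeR, FDR = 2.95e-07), from 56.9 to 74.6 CPM in Ikbkb+/+ to 129 to 172 CPM in Ikbkb-/-. In IkbkbCA the same list had 2 genes lower and 2 higher of 26, with a median of -0.15. There 7.16% of the 11697 genes tested were called lower and 7.31% higher, with a median of -0.05. Dnajc3, a J-domain inhibitor of the kinase PERK, fell by 0.57 ± 0.08 and Pdia6, a disulfide isomerase, by 0.50 ± 0.11, and Ddit3 rose by 0.83 ± 0.25 and Atf4 by 0.50 ± 0.15 (edgeR, FDR = 0.000755, 0.00746, 0.0429 and 0.0463). Between the 2 effects Herpud1 differed by 0.82 ± 0.17 and Dnajc10 by 0.59 ± 0.14 (edgeR, FDR = 0.00714 and 0.0234), and the other 24 genes of the list were not called.

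The immediate early genes moved beside Hspa1a and Hspa1b in Ikbkb-/-. Of 16, 12 were called lower and 0 higher, with a median log2 fold change of -0.64. Of all 11242 genes tested, 6.96% were called lower and 7.64% higher. This list too was chosen with earlier results of these data known. Dusp1, a phosphatase of MAP kinases, fell by 1.70 ± 0.27, Fos by 1.21 ± 0.15, Egr1 by 1.15 ± 0.11 and Nr4a1 by 1.10 ± 0.19 (edgeR, FDR = 0.000239, 1.3e-05, 2.94e-07 and 0.000625). Dusp1 had 115, 91.6, 73.6 and 31.9 CPM in Ikbkb+/+, with replicate 4 lowest as for Hspa1a, and 20.3 to 26.9 CPM in Ikbkb-/-. The 16 genes summed to 4638, 3796, 3809 and 3523 CPM in Ikbkb+/+ and to 2561 to 2662 CPM in Ikbkb-/-. In that sum replicate 4 stayed above all Ikbkb-/- libraries, while for Hspa1a it lay among them. S100a8, a granulocyte marker, also spread widely there, at 3.28 to 176 CPM in Ikbkb+/+ and 2.26 to 5.45 CPM in Ikbkb-/-. In IkbkbCA 1 of the 16 immediate early genes rose (Junb, by 0.63 ± 0.11) and 3 fell (Ier2, Klf4 and Klf2). There 7.31% of all genes tested were called higher and 7.16% lower. Between the 2 effects Dusp1, Fos, Junb and Ier3 differed, by 1.91 ± 0.45, 1.67 ± 0.37, 1.18 ± 0.17 and 0.96 ± 0.21 (edgeR, FDR = 0.0233, 0.0151, 0.000341 and 0.0117). The part of handling in the Hspa1a and Hspa1b values was not tested.

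**Figure D4:**
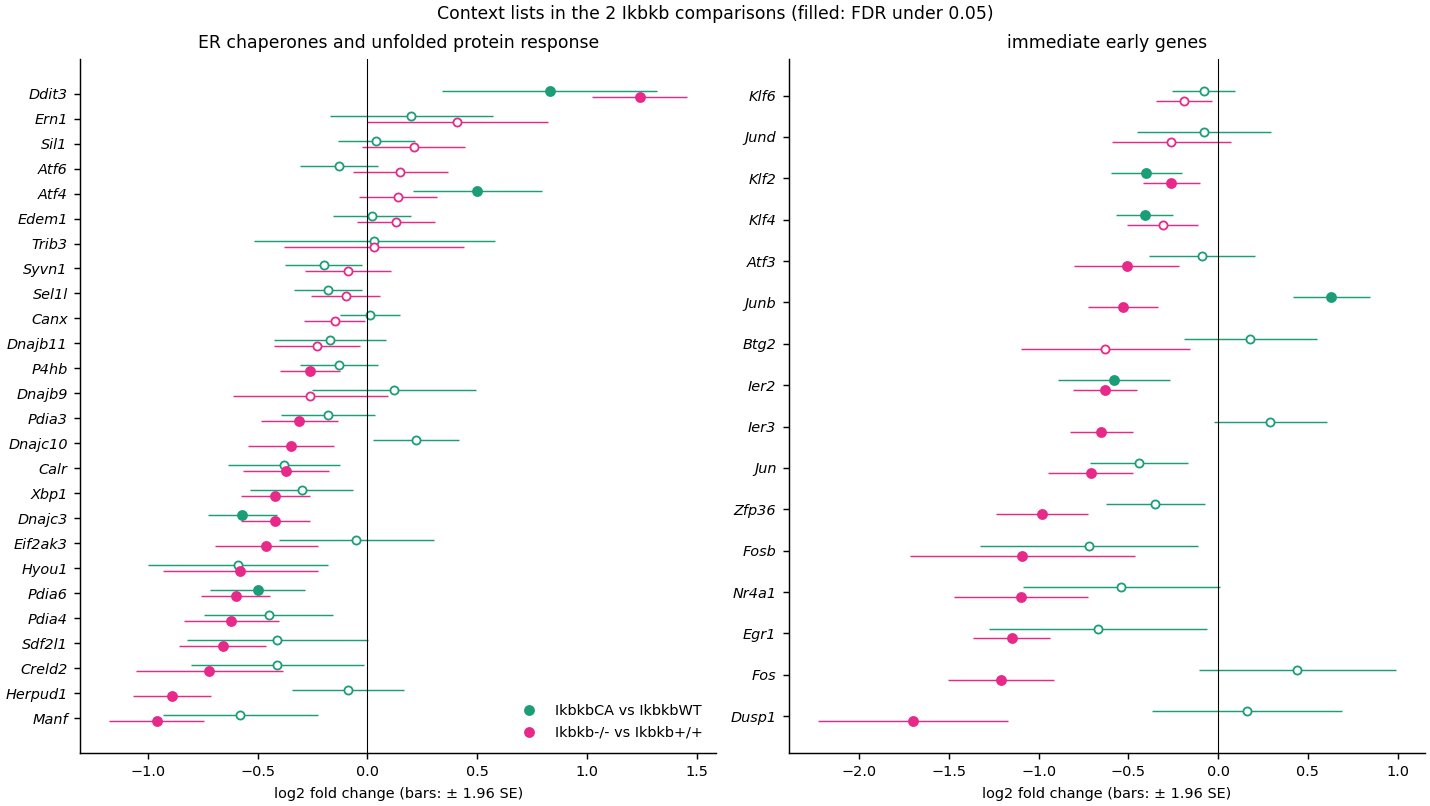
Log2 fold changes of 26 ER and unfolded protein response genes (left) and 16 immediate early genes (right) in the IkbkbCA and Ikbkb-/- comparisons, ordered by the Ikbkb-/- value, with bars of the 95% interval. Filled points have an FDR under 0.05. In Ikbkb-/- most points of both lists lie below 0, and Ddit3 lies above 0 in both comparisons.

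The other chaperone groups were counted in the Ikbkb experiments as well. Beside these counts, 7.31% of all genes tested were called higher and 7.16% lower in IkbkbCA. In Ikbkb-/- the shares were 7.64% higher and 6.96% lower. Of the J-domain co-chaperones tested (20), 2 fell in IkbkbCA and 3 in Ikbkb-/-, and Dnajc3 and Dnajb14 were lower in both. Dnajb14, an ER membrane protein, fell by 0.74 ± 0.13 and 0.36 ± 0.08. Of 16 HSP90 co-chaperones, Tomm70a (0.43 ± 0.08) and Sugt1 (0.29 ± 0.09) rose and Cdc37l1 (-0.46 ± 0.10) fell in IkbkbCA, and Sugt1 (0.26 ± 0.08) rose in Ikbkb-/-. Bag1, an exchange factor of HSP70, rose by 0.50 ± 0.09 in Ikbkb-/- (edgeR, FDR = 0.000881). Of the HSF1 targets outside the members, none of 18 was called in IkbkbCA, and Ier5 (0.55 ± 0.11) and Zfand2a (0.50 ± 0.12) rose and none fell of 17 in Ikbkb-/-, while Hspa1a and Hspa1b fell there. No heat shock factor was called in either, and of 6 other HSP70 and HSP110 genes only Hyou1, an ER member, fell, in Ikbkb-/- (by 0.58 ± 0.18). None of the 10 mitochondrial chaperones and proteases and none of the 8 subunits of the TRiC chaperonin was called in any of the 4 comparisons, and of the 7 small heat shock proteins only the 3 named with tau were.

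The genes whose levels went most like 4 members were ranked among 9367 or 9366 genes over the 34 libraries, after the mean of each comparison's 2 groups was taken off. The difference between the 2 groups of a comparison stayed in these levels, so that r also counts changes shared between groups. The libraries share experiments and depth, so that the values are a description. For Hspa1a they were Dusp1 (Pearson r = 0.76, Spearman rho = 0.70), Socs3, an inhibitor of cytokine signalling (0.74, 0.67), and Chst7, a sulfotransferase (0.72, 0.65), and without the 2 libraries farthest from the median r was 0.65, 0.62 and 0.61. For Hspa5 they were Incenp (0.84, 0.84), Stab1 (0.82, 0.81) and Ap2a2 (0.81, 0.83), and r was 0.82, 0.86 and 0.82 without those 2 libraries. For Hsp90b1 they were Sec11c, a signal peptidase subunit of the ER (0.79, 0.82), Acat1 (0.77, 0.79) and Manf (0.74, 0.72), with r of 0.75, 0.72 and 0.77. For Hspa8 they were Rpl26 (0.77, 0.50), Orc3 (0.71, 0.41) and Mcur1 (0.69, 0.49), and r fell to 0.42, 0.33 and 0.35, so that its likeness rested on those 2 libraries.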

How the data were processed

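Microglial RNA was sequenced as 3′ tags (QuantSeq 3′ FWD), and read mapping used BlueBee, with GENCODE genes of the GRCm38 build. The submitters' processing notes name STAR, RSEM, edgeR and limma without versions, of which the study's methods give STAR for the cortex samples. The authors deposited raw counts per Ensembl gene, 1 table per library, each ending in 5 lines of uncounted reads, a layout other than RSEM's. These lines stayed out of library sizes and tests, and reads outside genes made up 12.4 to 38.3% of uniquely aligned reads. From the tables, 34 microglia libraries were analysed and 24 cortex samples were not. Depth was 1672052 to 8349128 counts per library, and limits from counts cover counting error only. Of 56 pairs of libraries within groups, 0 were identical.

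Counts were filtered with filterByExpr, scaled by TMM and tested with edgeR's quasi-likelihood test (edgeR 4.0.16 in R 4.3.3), 1 fit per comparison over all genes, with Benjamini-Hochberg adjustment (FDR) and a threshold of 0.05. The IkbkbCA and Ikbkb-/- effects were compared in 1 fit of 18 libraries. Intervals are 95% normal intervals from the SE. Exact permutation tests (SciPy 1.17.1, two-sided) used log2(CPM + 0.5), and likeness between genes log2(CPM + 1). The code was tested on simulated data. Alternatives were RLE and total-count scaling, DESeq2 1.42.0, limma-voom (limma 3.58.1), other filters, covariates and leaving out each library.

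The members and gene lists were chosen with earlier results of these data known. All members were described, and of each other list at most the 4 called genes of largest change per comparison were named, with the 3 genes most like each of 4 members. The full count for the HSP90 co-chaperones with tau is not reported here. The labels do not say which libraries come from separate cultures.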

Additional observations from a re-analysis of the deposited data

Results flagged for a closer look

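In 4 of 76 combinations of a member and a group, 1 library lay far from the rest by Dixon's test, where chance gives about 1 in 20. Hspa5 in IkbkbWT replicate 3 was 2272 CPM, with the other 4 libraries at 2806 to 2940 CPM, and this library also had the highest oligodendrocyte marker sum. Hsp90aa1 in NTG replicate 1 was 761 CPM against 419 to 461 CPM, in the library where Hspa8 was lowest, at 46.4 CPM. Hsph1 in PS19 replicate 2 was 64.3 CPM against 47.0 to 47.7 CPM. Dnajb1 in PS19 replicate 4 was 203 CPM against 145 to 150 CPM.

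The IkbkbCA effect and the Ikbkb-/- effect differed in 2 members by the edgeR contrast itself, Hspa1a by 3.10 (FDR = 0.00334) and Hspa1b by 3.22 (FDR = 0.00686) on the log2 scale. Much of each value came from 3 Ikbkb+/+ libraries with 70.9 to 126 CPM of Hspa1a and 36.9 to 52.9 CPM of Hspa1b.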

How the results depend on the processing

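No paired analysis was possible because the labels give no replicate numbers, and those used here follow the order of the samples. Of 890 values of members under alternatives, none changed its direction while called, 29 were no longer called and 14 became called. A further 20 stayed uncalled but moved by more than their SE. The other 827 stayed on their side of the threshold. With reads outside genes, whose share does not overlap between the groups, as a covariate 0 members were called with tau (2 in the report) and 0 in IkbkbCA (3 in the report). Summing close pairs of libraries, chosen after seeing the data and done only in the IkbkbCA experiment, left 0 in IkbkbCA. In Ikbkb-/-, 5 calls became 2 under limma-voom (Hspa5 and Hsp90b1). With Ddx3y as a covariate 3 members were called there, Hspa1a and Hspa1b of the 5 and Hsp90aa1. Ddx3y does not overlap between those groups, so that this fit cannot part sex from genotype. The 2 calls of the difference between the effects became 0 under limma-voom. Leaving out 1 library gave 1 to 3 calls with tau, 2 to 4 in IkbkbCA, 4 to 6 in Ikbkb-/-, 2 for the difference and 0 in PS19. The causes were not tested.

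Hsp90b1 in IkbkbCA was not called without IkbkbWT replicate 1 (FDR = 0.0673), without IkbkbCA replicate 1 (FDR = 0.0659) or without a filter (FDR = 0.0947), all by edgeR. Over all genes, PS19 calls were 8 by edgeR, 98 by DESeq2, 166 without a filter, 4 by limma-voom and 0 with age, and IkbkbCA calls were 22 with reads outside genes as a covariate and 337 with pairs summed. The tau calls were 948 with reads outside genes as a covariate, and the Ikbkb-/- calls 305 with Ddx3y and 875 in 1 fit of the 18 libraries. Total-count scaling moved the median log2 fold change to -0.16 with tau and -0.11 in IkbkbCA, with 1057 genes higher and 2254 lower with tau (1506 and 1602 under TMM), 753 and 1252 in IkbkbCA (855 and 837) and 252 and 193 for the difference (275 and 111). The lowest depth limits Hspa1a and Hspa1b in the tau experiment.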
